A study of Oryza sativa Indica Group with 4 samples.

Results

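The DNA replication machinery of rice seedlings was followed through 32 genes, measured by 40 probe sets, of the 17905 genes that the array's annotation ties to probe sets of a single gene. The genes were chosen by name alone: subunits of the MCM helicase, the origin recognition complex ORC, replication protein A (RPA), the clamp loader replication factor C (RFC), the sliding clamp PCNA, DNA polymerase delta, the flap endonucleases FEN1A and FEN1B, and, read as the start of a subunit name, TOP6. The TOP6 names brought in 3 genes, the topoisomerase VI subunits TOP6A3 (also listed as SPO11-3) and TOP6B, and SPO11-2, a relative that in plants acts in meiotic recombination. With TOP6 read as a whole name, 29 genes and 35 probe sets would remain. No probe set of a single gene carried the searched names CDC6, CDT1, POLA, LIG1 or those of ribonucleotide reductase subunits.

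RNA came from seedlings 15 days after germination, grown under conditions described as optimal, of the Indica Basmati cultivar Basmati 370 (B370) and of a T-DNA insertional mutant of it named OsAPC6, after a subunit of the anaphase-promoting complex. Each genotype had 2 samples, called biological replications in the design text, and each sample had 1 Affymetrix array made from 8 µg of total RNA. The mutant is a single named insertion line, and the insertion site, its zygosity and any further lines are not stated in the labels. The comparison asked how transcript levels differed between the insertion line and its parent cultivar.

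In eukaryotes, ORC marks the sites where replication starts and helps to load the ring of MCM proteins, the helicase that unwinds the double helix. RPA coats the single strands, RFC opens and closes the PCNA ring around DNA, and polymerase delta, tethered by PCNA, copies the lagging strand, whose primer flaps FEN1 cuts off. These proteins are needed in cells passing through S phase, which in a seedling are found mainly in meristems and in young growing leaves and roots.

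The arrays had been scaled to the same trimmed mean before deposit, and replicate arrays correlated at 0.980 (wild type) and 0.977 (mutant) in log2 signal across 38172 probe sets, against 0.963 to 0.964 for arrays of unlike genotype. Detection calls were not used here. As a yardstick for dim signals, 63 of the array's 64 reporter probe sets, which match no rice gene, read at most 78.5 in any array. The remaining reporter probe set read 245.6 and 287.2 in wild type but 10386 and 9989 in the mutant, so it followed the labels. It was left out of the 78.5 level, which its wild-type signals also exceeded. The transcript of OsAPC6 was not analysed here. Seedling shoot genes such as CAB2R, a chlorophyll-binding protein gene read at 35934.5 or more in each array, and the root silicon channel gene Lsi1, at 967.1 or more, were both present. Of 12 shoot marker probe sets of 5 genes, 5 rose (41.7%), 1 fell (8.33%) and 6 did not pass. Among all tested probe sets 8.78% rose and 10.2% fell. The 5 rises came from the rca and RBCS genes only, and the other RBCS probe sets did not pass. Of 3 tested root marker probe sets that of Lsi1 fell. The probe sets of NAS2 and PHT1-11 did not pass, with differences of 0.91 and 0.69, against -0.74 for Lsi1. Both read under 78.5 in every array, so the root list's median of 0.69 rests on a dim signal. The 3 probe sets of the meristem genes OSH1 and WOX4 read 0.4 to 13.3 and were not tested.

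Most replication probe sets did not pass the test between the genotypes, and more of them read lower than higher in the mutant. Differences are given as mutant minus wild type of log2(signal + 16), tested with limma over all 38172 probe sets that passed a filter on dim signals. Of the 40 member probe sets, 33 passed that filter, and of these 6 fell, 1 rose and 26 did not pass a Benjamini-Hochberg adjusted p of 0.05. The genes that fell were ORC2, RPA32C, RFC2, RFC3, FEN1A and TOP6B, and the probe set that rose belonged to FEN1B. The share called, 21.2%, was close to the 19.0% of all tested probe sets. Falls made up 18.2% of the tested members against 10.2% of all tested probe sets, and the single rise compares with 8.78%. In bulk RNA such as this, fewer replicating cells and less RNA per cell cannot be told apart.

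**Figure D1:**
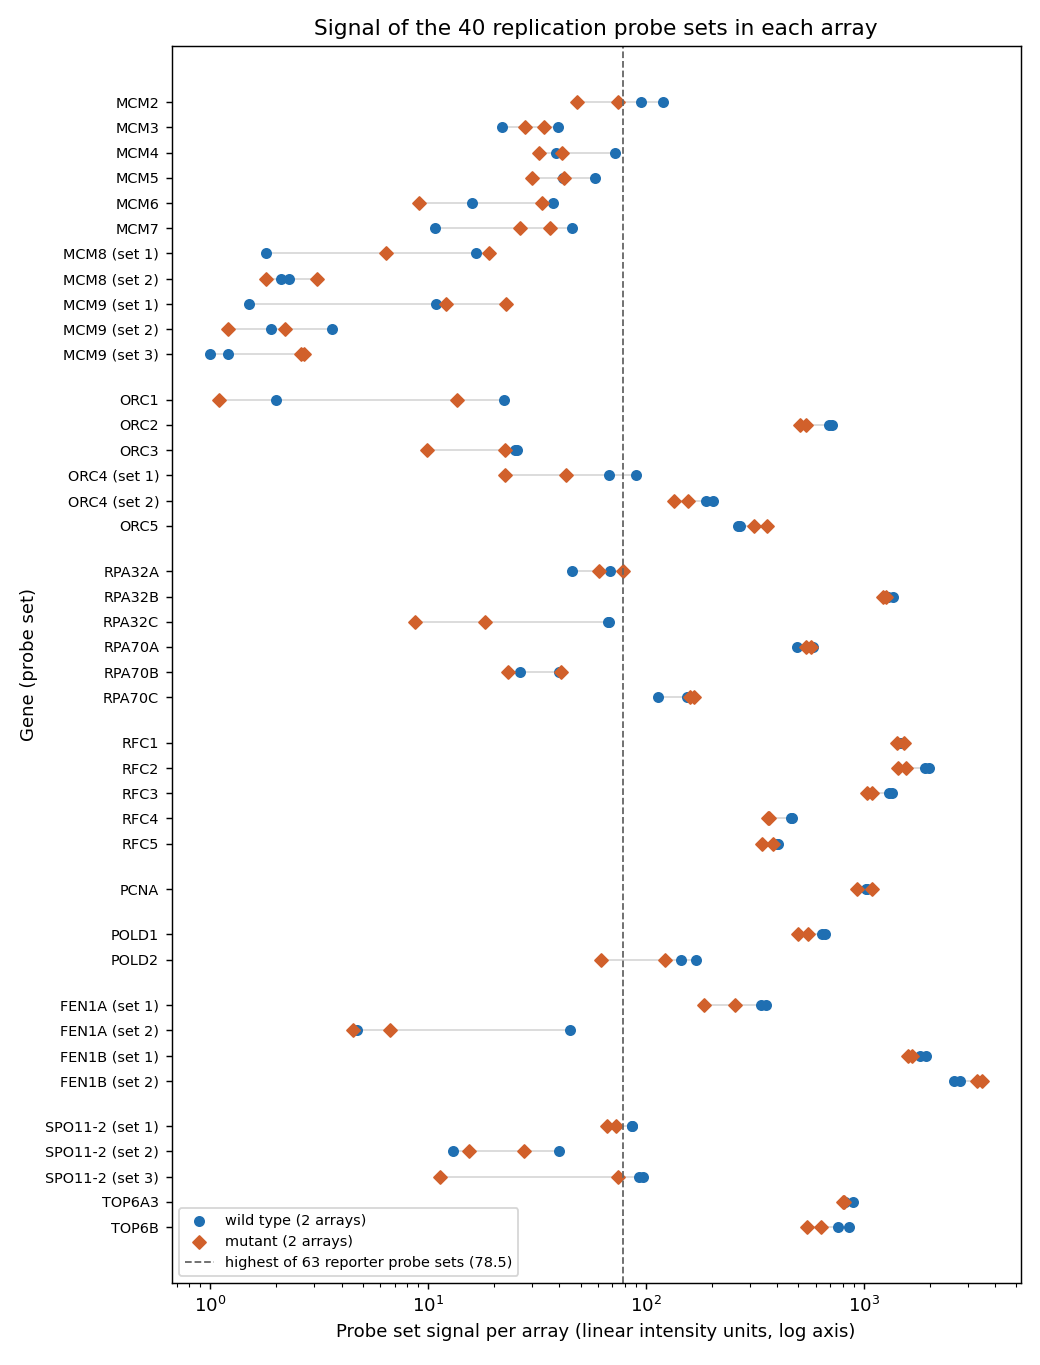
Signal of each of the 40 replication probe sets (rows, grouped by complex) in the 2 wild-type arrays (circles) and the 2 mutant arrays (diamonds), on a log axis in linear intensity units; sets of a gene are numbered in the order of their probe set names. The dashed line is the highest signal of 63 reporter probe sets, 78.5; most MCM probe sets lie to its left, while the RFC, PCNA and FEN1B probe sets lie well to its right.

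Direction was uneven among the members. The mutant arrays both read below both wild-type arrays in 19 of the 33 tested probe sets (57.6%), against 29.8% of all tested probe sets, and both read above in 3, against 26.9%. The median difference of the 33 was -0.26, with quartiles of -0.40 and -0.03, while that of all tested probe sets was -0.01. Without the filter, all 40 member probe sets had a median of -0.21, and 29 of them were below 0. Over all 57258 probe sets without the filter the median was 2.2e-05, and 28627 were below 0. Among the 23 tested members with a signal above 78.5, 17 were lower in both mutant arrays (73.9%) and 5 fell (21.7%). For all 25087 tested probe sets above that level these shares were 37.4% and 15.4%. MCM2, an ORC4 probe set and probe sets of SPO11-2 were above 78.5 in wild type only. Members are not independent of one another, and the filter and the 78.5 level kept some of them through their wild-type level. These counts therefore describe the genes and carry no test.

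Some control transcripts also read lower in the mutant. The GAPDH control gene had a difference of 0.05 at its 3′ end, -0.50 in the middle and -0.77 at its 5′ end, and actin had 0.12, -0.55 and -0.12 in that order. Of the 12 probe sets for the 3′ end, middle and 5′ end of GAPDH, actin, cyclophilin and ubiquitin, 6 read lower in both mutant arrays. That held for 29.8% of all tested probe sets and for 37.4% of those above 78.5. No 3′ control probe set was among the 6, and that of ubiquitin was higher in both mutant arrays. The 3′ to 5′ ratio of GAPDH, often used to judge RNA integrity, was 9.72 and 9.84 in wild type against 18.4 and 16.2 in the mutant, and that of ubiquitin 1.04 and 1.03 against 1.32 and 1.27. For actin the ratio overlapped between genotypes, at 16.1 and 8.79 in wild type and 12.2 and 16.6 in the mutant. For cyclophilin it also overlapped, at 2.27 and 2.86 and then 2.92 and 2.38. These control probe sets were outside the test. Among the members that fell, RPA32C alone had a difference below the -0.77 of the 5′ GAPDH probe set, the lowest of the 12 controls. The 5′ probe sets of actin, cyclophilin and ubiquitin gave -0.12, -0.10 and -0.16. Where the member probe sets lie along their transcripts was not examined. The part of RNA integrity in the members' falls was not tested.

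The origin recognition complex was read through 5 genes and 6 probe sets, of which 1 fell and 4 of the tested did not pass. ORC2 (LOC4331860) gave signals of 711.1 and 689.7 in wild type and 508.3 and 539.3 in the mutant. The mutant mean was 74.8% of the wild-type mean, a fall of 0.41 on the log2 scale (SE 0.11, limma adjusted p = 0.0242), and the genotypes did not overlap. ORC4 (LOC4324139), which in other eukaryotes is an ATP-binding member of the same ring, had a pair of probe sets that both read lower in the mutant without passing. The first read 89.8 and 67.5 against 22.5 and 43.0, a difference of -0.98 (SE 0.39, limma adjusted p = 0.113). The second, of a type shared by several transcripts (_s_at), read 203.6 and 188.6 against 134.8 and 155.7, a difference of -0.40 (SE 0.20, limma adjusted p = 0.221).

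ORC5 (LOC4334180) lay on the other side of ORC2. Its signals were 263.3 and 270.6 in wild type and 312.5 and 358.5 in the mutant, higher in both mutant arrays, with a difference of 0.31 that did not pass (SE 0.15, limma adjusted p = 0.205). ORC3 was dim, at 9.9 to 25.5, and its difference of -0.38 had a 95% interval from -1.52 to 0.75. ORC1, an ATPase subunit in other eukaryotes, read 1.1 to 22.2 and was not tested. The gene table lists OsORC1 as a synonym of both ORC1 and ORC5, and each is named here by its own plain symbol.

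The MCM helicase was read near the reporter level in these seedlings. Of 11 probe sets for 8 genes, 5 were too dim to test, and none of the 6 tested was called by limma, with 0 of the 6 also at an unadjusted p under 0.05. MCM2 (LOC4350526), the MCM gene with signals above 78.5, read 94.4 and 119.4 in wild type and 73.9 and 48.2 in the mutant. Both mutant arrays were lower, by a difference of -0.69 with a 95% interval from -1.38 to 0.01 (limma adjusted p = 0.171). MCM3, MCM4, MCM5, MCM6 and MCM7, the other subunits of the replicative ring, read between 9.1 and 71.6 with overlapping genotypes, so every signal of theirs lay within the range of the reporter probe sets. Their differences ran from -0.40 for MCM4 to 0.21 for MCM7.

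The intervals show how little can be said about the ring. That of MCM7 ran from -0.96 to 1.39, and that of MCM5 from -1.23 to 0.55, so changes of either direction and of about the size of the falls above were not detectable at these signals. MCM8 and MCM9, relatives that act with each other in recombinational repair in animals, read at most 22.7 in any array by any of their 5 probe sets and were not tested. For MCM9, 1 probe set read 1.5 and 10.9 in wild type and 12 and 22.7 in the mutant, and the others stayed at 3.6 or less.

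RPA is a trimer, and rice has several genes for its large (RPA70) and middle (RPA32) subunits. Of 6 genes, 5 did not pass and RPA32C (LOC9266781) fell. RPA32C read 67.5 and 66.7 in wild type and 18.2 and 8.7 in the mutant, the largest log2 difference among the members called. The fall was 1.52 on the log2 scale (SE 0.43, limma adjusted p = 0.0344). All 4 of its signals lay under the 78.5 reached by a reporter probe set, so they may not be above background and the size of the fall is uncertain. The probe set entered the test through its wild-type level.

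The other RPA genes did not pass. RPA32B (LOC4330068), another gene for the middle subunit, read 1359 and 1290 in wild type and 1222 and 1259 in the mutant. Its difference of -0.09 had a 95% interval from -0.28 to 0.09. RPA70A (LOC4330902) read 494.3 and 582.1 against 571.1 and 539.3, with overlapping genotypes and an interval from -0.23 to 0.32. RPA70C was higher in both mutant arrays, at 165.1 and 158.1 against 113.0 and 154.6, and did not pass (difference 0.26, limma adjusted p = 0.513). RPA32A and RPA70B read 23.3 to 78.1 with overlapping genotypes.

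The clamp loader was measured as a whole, since each of the RFC1 to RFC5 genes had 1 probe set well above the reporter level. The small subunits RFC2 to RFC5, which with the large subunit RFC1 form the ring that opens PCNA, all read lower in both mutant arrays, and 2 of them passed the test. Of all tested probe sets above 78.5, 37.4% were lower in both mutant arrays and 15.4% fell. RFC2 (LOC4351654) read 1985 and 1907 in wild type and 1438 and 1553 in the mutant, falling by 0.38 (SE 0.08, limma adjusted p = 0.00894). RFC3 (LOC4330895) read 1298 and 1341 against 1093 and 1031, falling by 0.31 (SE 0.09, limma adjusted p = 0.0316). The mutant means were 76.8% and 80.5% of the wild-type means. The RFC3 call was lost with a common 75th percentile of the arrays (limma adjusted p = 0.0573) and with no filter (limma adjusted p = 0.0505).

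RFC4 (LOC4336704) did not pass at a mean difference close to that of RFC3. It read 466.7 and 460.6 in wild type and 367.0 and 364.2 in the mutant, at 78.9% of the wild-type mean, and its difference was -0.33 (SE 0.12, limma adjusted p = 0.0998). RFC5 (LOC4334389) read 397.3 and 403.5 against 338.7 and 380.5, with a difference of -0.15 and an interval from -0.45 to 0.15. RFC1 (LOC4350754), by contrast, overlapped between genotypes. Its signals were 1482 and 1468 against 1525 and 1414, and its difference of -0.01 had an interval from -0.19 to 0.18. Whether RFC1 differs from the small subunits was not tested.

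PCNA (LOC4331062), the sliding clamp and a common marker of S phase, overlapped as well. It read 1028 and 1021 in wild type and 1091 and 925 in the mutant, with a difference of -0.03 (limma adjusted p = 0.896). The 95% interval ran from -0.26 to 0.20, and PCNA was not tested against RFC2 or ORC2. Without the first mutant array its difference was -0.15 (SE 0.11). The sign of the PCNA and RFC1 differences turned with a common 75th percentile, to 0.01 and 0.03, and without the second mutant array, to 0.09 and 0.05.

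**Figure D2:**
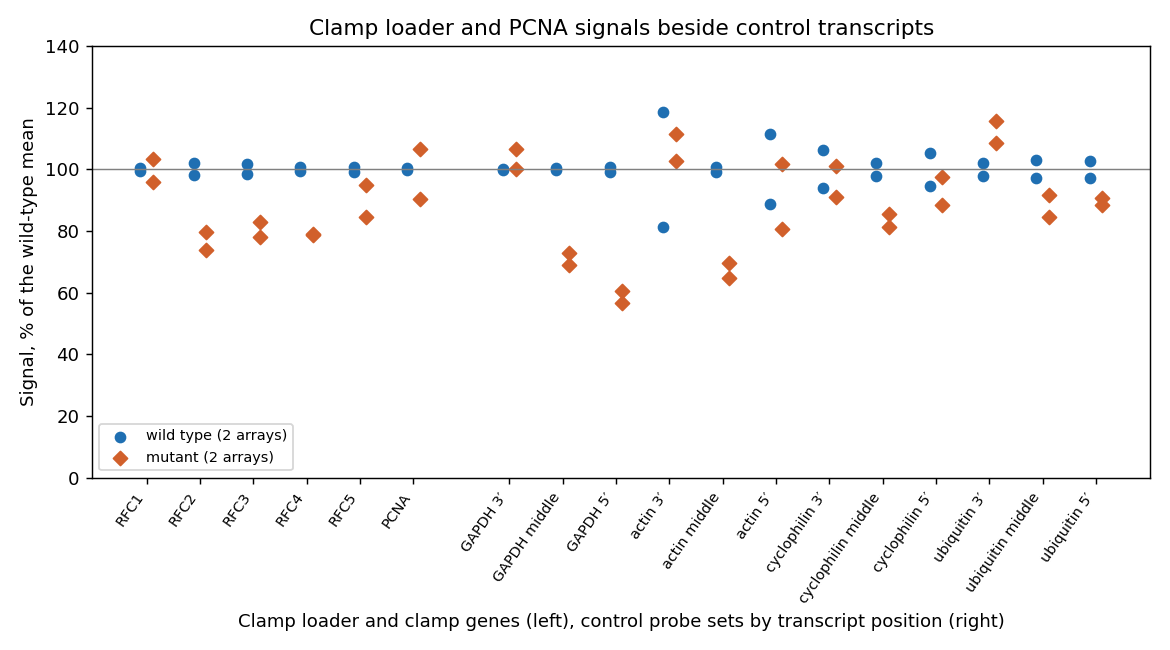
Signals of the RFC1 to RFC5 and PCNA probe sets (left) and of control probe sets for the 3′ end, middle and 5′ end of 4 transcripts (right), each as a percentage of its own wild-type mean; circles are the 2 wild-type arrays and diamonds the 2 mutant arrays. RFC2, RFC3, RFC4 and RFC5 lie below the wild-type arrays in both mutant arrays, RFC1 and PCNA do not, and the middle and 5′ GAPDH probe sets lie lower in the mutant than any RFC probe set.

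POLD1 and POLD2, the subunits of DNA polymerase delta among the members, read lower in both mutant arrays, and neither passed. Being lower in both mutant arrays held for 37.4% of all tested probe sets above 78.5. POLD1 (LOC4349968), the catalytic subunit, read 644.2 and 661.0 in wild type and 550.0 and 498.2 in the mutant, with a difference of -0.31 (SE 0.11, limma adjusted p = 0.0853). POLD2 (LOC4331489), its accessory subunit, read 169.0 and 145.0 against 121.9 and 62.2. The mutant arrays of POLD2 lay further from each other than the nearer one lay from wild type, and the difference was -0.73 (SE 0.30, limma adjusted p = 0.130). Without the first mutant array POLD2 passed, at -1.14 (limma adjusted p = 0.0218).

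Of the flap endonucleases, FEN1A fell and FEN1B had a pair of tested probe sets that parted in direction. FEN1A read 356.0 and 335.2 in wild type and 184.5 and 256.1 in the mutant, falling by 0.63 to 63.7% of the wild-type mean (SE 0.18, limma adjusted p = 0.0371). Its other probe set read 44.5 in the first wild-type array and 4.5 to 6.7 in the others, and was not tested. FEN1B rose by one probe set, from 2749 and 2596 to 3295 and 3474, a difference of 0.34 (SE 0.07, limma adjusted p = 0.00879). The other FEN1B probe set, of a type that may cross-match other transcripts (_x_at), read 1920 and 1797 against 1664 and 1583. That was lower in both mutant arrays, with a difference of -0.19 that did not pass (SE 0.08, limma adjusted p = 0.131). The direction for FEN1B thus depends on the probe set, and no single value is given for the gene.

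Topoisomerase VI, which in Arabidopsis is needed for the rounds of replication without division that enlarge plant cells, was read through both its subunits. TOP6B fell from 850.8 and 758.5 to 544.4 and 635.9, a difference of -0.44 (SE 0.12, limma adjusted p = 0.0261). TOP6A3 read 892.1 and 817.9 in wild type and 808.1 and 797.5 in the mutant, lower in both mutant arrays by a small margin, with a difference of -0.09 and an interval from -0.31 to 0.13. None of the 3 probe sets of SPO11-2 passed. Its signals were 11.3 to 96.3, and the largest difference, -1.15, came from mutant arrays as far apart as 74.3 and 11.3.

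**Figure D3:**
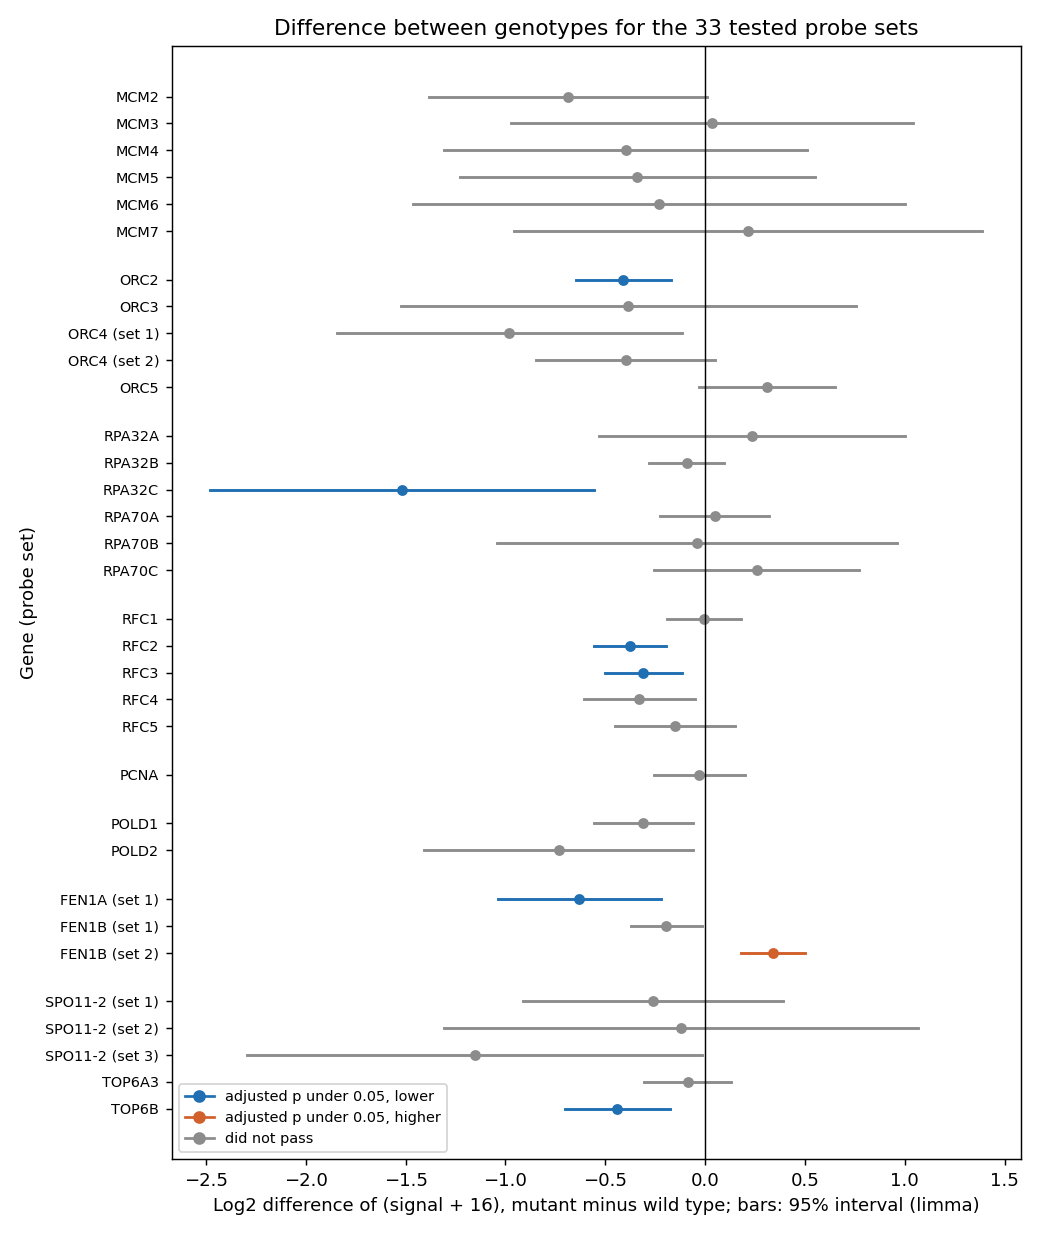
Log2 difference of (signal + 16), mutant minus wild type, for the 33 tested replication probe sets, with 95% intervals from limma. Intervals are short for the RFC, PCNA and FEN1B probe sets and span 0 widely for the MCM probe sets other than MCM2; the 6 probe sets that fell are blue, the 1 that rose is orange and the 26 that did not pass are grey.

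Set among all probe sets of like mean signal, most members lay inside the usual range. Of the 33, 24 had a difference below the median of their signal class and 3 lay below its 5th percentile. Those 3 were RPA32C, the first ORC4 probe set and an SPO11-2 probe set, none of which read above 96.3 in any array. The 6 others called lay between the 5th and the 25th percentile, or for FEN1B between the 75th and the 95th.

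**Figure D4:**
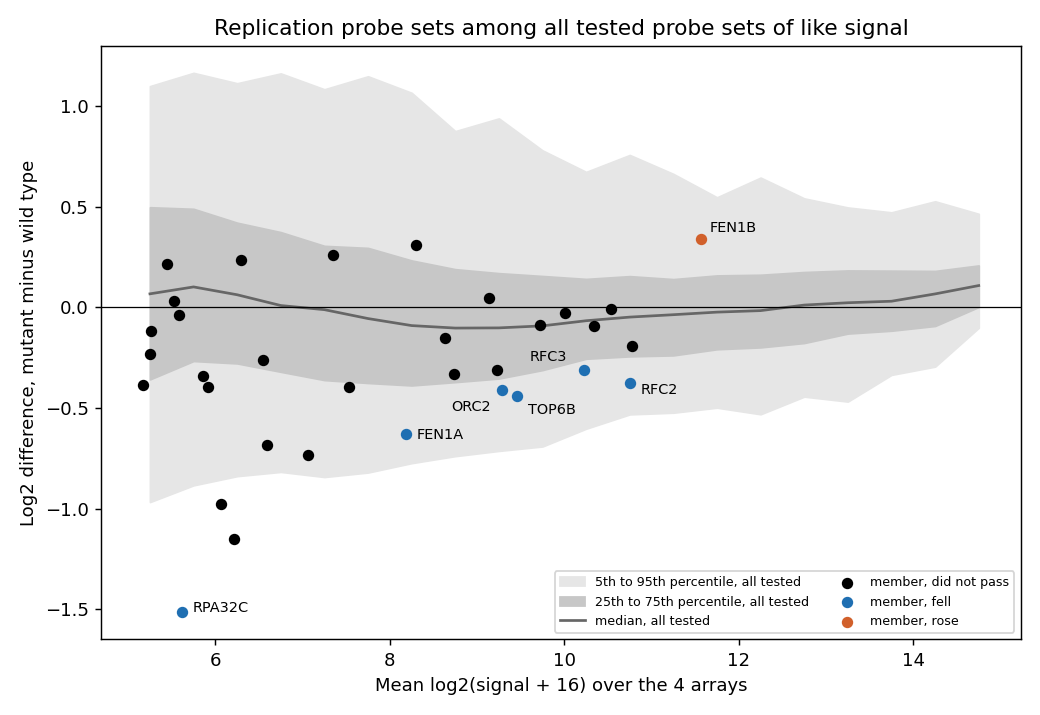
Log2 difference, mutant minus wild type, against the mean of log2(signal + 16) over the 4 arrays; grey bands are the 5th to 95th and 25th to 75th percentiles and the line the median of all tested probe sets in classes 0.5 wide, and points are the 33 tested replication probe sets. Named points passed the test; 24 of the 33 points lie below the median line.

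Other genes of the pathway were taken from lists of names. Outside the members, 3 replication genes were found: POLL, a repair polymerase, TOP3B, a topoisomerase, and a gene listed as TK. All 3 were lower in both mutant arrays, with differences of -0.65, -0.32 and -0.23, and limma called 0 of them, with 2 at an unadjusted p under 0.05. Being lower in both mutant arrays held for 29.8% of all tested probe sets. Regulators of entry into S phase, namely D-type cyclins, A-type CDKs and retinoblastoma-related proteins, gave 0 calls in limma among 17 tested probe sets of 13 genes, with 3 at an unadjusted p under 0.05, all lower in the mutant. Of all tested probe sets, 19.0% were called and 11666 had an unadjusted p under 0.05. The regulators' median difference was 0.00, with 4 probe sets lower (23.5%) and 5 higher (29.4%) in both mutant arrays, against 29.8% and 26.9% of all tested probe sets.

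DNA repair genes had 5 falls and 0 rises among 25 tested probe sets of 16 genes, with a median of -0.27. Lower in both mutant arrays were 12 of the 25 (48%), and 1 (4%) was higher in both. Over all tested probe sets these shares were 29.8% and 26.9%, and the median was -0.01. KU80 (0.60), KU70 (0.45), RAD23 (0.45 and 0.28) and MRE11 (0.37) were those that fell, in brackets the log2 falls. KU70 and KU80 form the ring that binds broken DNA ends, and MRE11 trims such ends. The other tested probe sets of KU70 and KU80 did not pass, and 1 of KU70, at 1.6 to 20.7, was not tested. A further RAD23 probe set went the other way, at 52.8 and 33.5 in wild type and 73.4 and 57.8 in the mutant. Its difference of 0.48 did not pass. The share of repair probe sets that fell, 20%, compares with 10.2% of all tested probe sets. Mitotic cyclins and CDKs, read as markers of dividing cells, were mostly dim: 3 of 9 probe sets were not tested, and of 6 tested 5 were below 0 and 1 passed. Among all tested probe sets 51.2% were below 0 and 19.0% were called. CYCA1-4, an A-type cyclin, fell by 0.32 (limma adjusted p = 0.0372), a call lost with any 1 array left out, with no filter, and under a common 75th percentile or quantile normalization. CDKB2-1, a mitotic CDK, read 26.9 and 29.6 against 50 and 72.3 and did not pass (limma adjusted p = 0.214). What part fewer dividing cells play in the members' differences was not tested.

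No call among the members was kept through every fit that left out 1 array. Without the first wild-type array the members' calls went from 6 falls and 1 rise to 0 falls and 1 rise, and without the second to 2 falls, RFC2 and TOP6B, and 0 rises. Without the first mutant array 4 of the 7 calls were kept, those of ORC2, FEN1A and TOP6B being lost, and without the second 5 were kept, those of RPA32C and RFC3 being lost. FEN1B and RFC2 were kept in 3 of these 4 fits. With no intensity trend in the variance prior, limma called 0 of the 33 members and 0 probe sets in all. All 7 called members kept their sign in every alternative fit run on them.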

How the data were processed

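The deposited values are linear signal intensity per probe set of an Affymetrix rice array, made by the authors; the submitters' processing notes name the software GCOS 1.2. The trimmed mean (2% off each end) was 500.1 in each array. No label records further upstream steps. The 123 control probe sets were left out, as was the 19086 probe sets lowest by mean log2(signal + 16). Log2 medians of the arrays lay within 0.06, so no normalization was added.

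The 38172 others were fitted with limma 3.58.1 in R 4.3.3 (eBayes with an intensity trend, 2 wild-type against 2 mutant arrays) and adjusted by Benjamini-Hochberg over all of them at 0.05. Errors in brackets are limma's SE and intervals are 95%; 4 arrays limit the precision. The labels do not say that the samples came from separate plantings, so p-values measure only the spread between these samples. The script was checked on simulated data, with known changes placed on brighter probe sets only. It recovered 42% of 1.3-fold, 76% of 1.5-fold and 86% of 2-fold changes, so small changes could be missed. Only 50 probe sets were changed per fold size, while 7244 were called in the data, so these rates need not hold for the real comparison.

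Of the array's probe sets, 22436 had 1 listed gene, 95 several and 34850 none. Gene names are those of the platform annotation, updated by gene number through a RefSeq table of assembly ASM3414082v1, in which all 22436 were found. Members are all genes with the stated names, with an optional Os prefix; the gene lists allowed digits and 1 letter after a name. Every single-gene probe set whose name matched a list was kept unless it was already a member, so a list may hold symbols matched by chance. Every member is accounted for, and list genes are named where they were called or mark a role. The members and lists were chosen with earlier results of these data known. A planned promoter motif search was not run.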

Additional observations from a re-analysis of the deposited data

Results flagged for a closer look

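The probe set RPTR-Os-K01193-1_at, 1 of 64 reporter probe sets that match no rice gene, had a mean signal of 10187.7 in the mutant arrays. Reporter probe sets belonged to none of the gene lists, but were not among the control probe sets left out before the filter. It read 10386.1 and 9989.3 there against 245.6 and 287.2 in the wild-type arrays. The signals of the genotypes did not overlap, and no other reporter probe set read above 78.5 in any array.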

How the results depend on the processing

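With 2 arrays per genotype, calls rested on limma's prior variance. Without an intensity trend in that prior, 0 of all probe sets, 0 members, 0 repair genes and 0 mitotic genes were called. Leaving out 1 array gave 4633 to 6536 calls in all against 7244 as reported, 1 to 6 members against 7, 1 to 4 repair probe sets against 5, 0 to 0 mitotic probe sets against 1, and a member median from -0.30 to -0.16. In those fits the lone array is assumed to vary like the others. With the replicate block, 7 members and 7661 probe sets in all were called. The replicate numbers share no stated source, and deviations from the genotype means correlated at 3.1e-05 between same-numbered samples. With no filter, 3 members, 3 repair probe sets and 0 mitotic probe sets were called. A common 75th percentile left 6 members (RFC3 was lost), 3 repair and 0 mitotic calls, quantile normalization 3 repair and 0 mitotic calls, and a pseudocount of 1 gave 3 repair calls. A pseudocount of 64 moved the member median from -0.26 to -0.17. A rule of 1.5-fold in all 4 array pairs, with no p, kept 2 members, RPA32C and ORC4, both lower; over all probe sets it gave 2968 higher and 1886 lower, against 3351 and 3893 by limma. Under the common 75th percentile 3653 were higher and 3306 lower. Chosen after seeing the data, TOP6 read as a whole name gave 6 calls, and members above the reporter level also 6. Of the 33 tested members, 25 kept their sign in every alternative run on them. SPO11-2 was called without the first mutant array, at -2.02 (limma adjusted p = 0.00722). Causes of these shifts were not tested. Signals under the reporter level limit the MCM, ORC3 and RPA32C values.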
